A study of Mus musculus with 2 samples.

Results

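The genes described here encode the constant parts of mouse antibodies and the chain that joins antibody units. They are 9 of the 32285 genes counted in both libraries: the heavy chain genes Ighm, Ighd, Igha and Ighg1, the light chain genes Igkc, Iglc1, Iglc2 and Iglc3, and Jchain. They were chosen by name. Their raw counts, in unique molecular identifiers (UMIs, 1 for each captured transcript), were read in B cells and, as background, in T, natural killer (NK) and myeloid cells.

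CD45+ DAPI-negative (live) cells were sorted from adrenal glands of 7-week-old C57Bl/6 mice, and the 3′ ends of their transcripts were sequenced cell by cell in droplets. The study compared females and males, with 1 library per sex. The labels give no genetic change or treatment for either group, and the number of animals in a library was not given in the sources used here. With 1 library per sex no value can be set against the spread between animals, so no test was run, and every 95% interval below covers counting error only.

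A B cell makes an antibody from a pair of heavy and a pair of light chains. A naive B cell carries IgM and IgD, which are spliced from 1 long transcript over Ighm and Ighd. After activation the cell can cut out DNA between constant genes and switch to IgG, IgA or IgE. Light chains are either kappa, from Igkc, or lambda, from the Iglc genes, and a B cell usually keeps to 1 of them. Plasma cells secrete antibody in bulk, and Jchain, the joining chain, links secreted IgM and IgA into larger forms.

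On GRCm38 the heavy chain genes lie on the minus strand of chromosome 12, with Ighm at chr12:113418558-113422730, Ighd at chr12:113406604-113416324, Ighg1 at chr12:113325240-113330523 and Igha at chr12:113254830-113260236. Igkc lies on the plus strand at chr6:70726435-70726966, where a long noncoding RNA gene, Gm30211, overlaps it on the same strand. The lambda genes lie on the minus strand of chromosome 16, Iglc1 at chr16:19061618-19062071, Iglc3 at chr16:19065230-19065681 and Iglc2 at chr16:19198396-19200351. The antisense gene 2010309G21Rik overlaps Iglc1 and Iglc3 on the plus strand. Jchain, an ordinary protein-coding gene outside these loci, lies on the minus strand at chr5:88519809-88527891.

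How far the lambda genes can be told apart by a 55-base read bears on every lambda value below, so the last 120 coding bases of each are shown, from the GENCODE transcripts, 5′ to 3′ on the minus strand, at chr16:19061755-19061874, chr16:19198539-19198658 and chr16:19065368-19065487 in the order printed. Capitals mark bases that differ from Iglc2.
Iglc1: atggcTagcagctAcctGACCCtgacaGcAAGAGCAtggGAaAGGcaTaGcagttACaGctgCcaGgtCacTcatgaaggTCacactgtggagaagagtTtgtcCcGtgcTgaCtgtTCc
Iglc2: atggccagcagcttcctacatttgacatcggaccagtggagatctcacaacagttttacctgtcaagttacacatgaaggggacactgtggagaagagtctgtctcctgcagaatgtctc
Iglc3: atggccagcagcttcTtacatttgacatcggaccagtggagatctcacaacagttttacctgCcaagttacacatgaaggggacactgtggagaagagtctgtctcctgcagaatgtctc
In this stretch Iglc1 differs from Iglc2 at 38 bases and Iglc3 at 2. Over the whole coding part Iglc2 and Iglc3 were identical at 303 of 314 aligned bases (96.5%) and Iglc1 and Iglc2 at 230 of 314 (73.2%). Of the 404 windows of 55 bases along the Iglc2 transcript, 33 (8.17%) were also in Iglc3, and no window of Iglc1 was in Iglc2. Reads from those shared windows cannot be assigned, so the split between Iglc2 and Iglc3 is less sure than that of Iglc1.

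The ends of the secreted heavy chains show the feature that Jchain uses. The last 60 coding bases of Ighm (chr12:113420870-113420929), Igha (chr12:113258771-113258830) and Ighg1 (chr12:113328979-113329038) follow, on the minus strand, with the codon before the last in capitals where it encodes cysteine.
Ighm: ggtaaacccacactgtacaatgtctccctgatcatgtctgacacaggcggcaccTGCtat
Igha: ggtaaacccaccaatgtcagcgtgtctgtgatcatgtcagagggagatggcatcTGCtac
Ighg1: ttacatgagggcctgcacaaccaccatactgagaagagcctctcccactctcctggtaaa
Ighm and Igha end in this cysteine codon, and Ighg1 has none there.

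The female library held 3963 barcodes with 16218309 UMIs and the male library 2685 with 9512670. After filtering, 3694 female and 2449 male cells remained, with medians of 3489.5 and 3008 UMIs. The 2 libraries shared 2 cell barcodes. Cells were clustered without any immunoglobulin gene. The B cell clusters were named from Fcer2a (the low-affinity IgE receptor CD23, carried by follicular B cells) against Mzb1 and Zcwpw1. The follicular B-like cluster held 375 female and 217 male cells (median 2001 and 1589 UMIs), and the innate-like B cluster 135 and 48 (6283 and 4728 UMIs). All 8 markers on the B cell list were detected in both clusters. Their summed level was 13330 and 12702 CPM (a gene’s UMIs scaled to the total UMIs of the class) in follicular B-like cells of the female and male library and 8042 and 7919 CPM in innate-like B cells, against 40.6 and 23.6 CPM in T-like cells. A further 8 female and 3 male cells, called Ig-rich, had at least 10% of their UMIs on immunoglobulin genes. This boundary was chosen after the values were seen. It falls in a gap, since the next cells below it were at 8.47% and 7.47% and the lowest cell above it at 17.0%.

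The 11 Ig-rich cells held most of the Igkc, Jchain and Igha transcripts of both libraries and a small share of the lambda ones. They were picked by their immunoglobulin UMIs, Jchain among them, so these shares describe the class. They carried 75.2% of the female and 60.7% of the male Igkc UMIs, 98.9% and 98.8% of the Jchain UMIs, and 97.1% and 98.5% of the Igha UMIs. For Ighm the share was 67.7% in the female and 27.2% in the male library. For Iglc1, Iglc2 and Iglc3 it was 3.98%, 4.98% and 3.24% in the female and 10.02%, 3.44% and 6.57% in the male library, where the other B cells held 86.6 to 91.4%. Each cell held between 11591 and 28312 UMIs, of which 17.0 to 74.5% came from immunoglobulin genes. No Ighd UMI was found in any of the 11, for which the exact Poisson upper limit is 24.4 CPM in the female and 66.3 CPM in the male cells.

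IgM and IgA were the heavy chain types that led in these cells. Ighm led in 8 cells, 7 female and 1 male, with 1291 to 3498 UMIs a cell. Igha led in the other 3, with 926 UMIs in the female cell and 4342 and 815 in the male cells, and none of the 3 held an Ighm UMI. The male cell with 815 Igha UMIs also held 90 Ighg1 UMIs, which are all the Ighg1 UMIs of both libraries. The female Igha cell and the male cell with 4342 Igha UMIs each held 14 UMIs of Ighg2b, another IgG gene. The 2 libraries thus differed in their mixture, IgM in 7 of 8 female and 1 of 3 male cells, at numbers too small for a comparison.

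Igkc led the light chain constant genes in every Ig-rich cell. It ranged from 2268 to 10872 UMIs, with a median of 9626 in the female and 4158 in the male cells. The lambda genes made up 0.695% of light chain UMIs in the female and 1.58% in the male cells, and 4.43% in the highest cell. The most counted light chain variable gene was a lambda one, Iglv1, in 2 of the 11 cells, with 24 of 36 light variable UMIs in a female cell led by Ighm and 30 of 56 in the male cell with 4342 Igha UMIs. Jchain was found in all 11 cells at 172 to 1665 UMIs, with the lowest value in the female Igha cell. All 11 were led by Ighm or Igha, whose printed ends both carry the cysteine codon. No cell led by an IgG gene was there for contrast. The other B cells held 6027 and 2539 Ighm UMIs but only 24 and 8 Jchain UMIs.

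Markers of plasma cells were detected in all Ig-rich cells, from 8 to 12 of the 12 on the list. Sdc1, the plasma cell surface protein syndecan-1, had UMIs in 8 of 8 female and 2 of 3 male cells, against 3 of 510 and 2 of 265 in the other B cells. Xbp1, a transcription factor of the secretory programme, stood at 767 and 504 CPM against 37.9 and 24.0 CPM. Tnfrsf17, the survival receptor BCMA, had UMIs in 7 of 8 and 3 of 3 cells, against 1 of 510 and 0 of 265. The B cell transcription factor gene Pax5 had no UMI in any of the 11 cells. Of these cells, 8 fell in the innate-like B cluster although immunoglobulin genes were held out, and the other 3 (all female) in a macrophage-like cluster, an unnamed cluster led by macrophage-type genes and a cluster of cycling cells. Those in the first 2 of these clusters also held the macrophage genes C1qa (9 and 31 UMIs) and Apoe (62 and 96 UMIs), and the part of mixed droplets in them was not tested. The cell in the cycling cluster, the female Igha cell, held 18 UMIs of Top2a, a gene of dividing cells. No Ig-rich barcode was removed as a doublet.

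**Figure D1:**
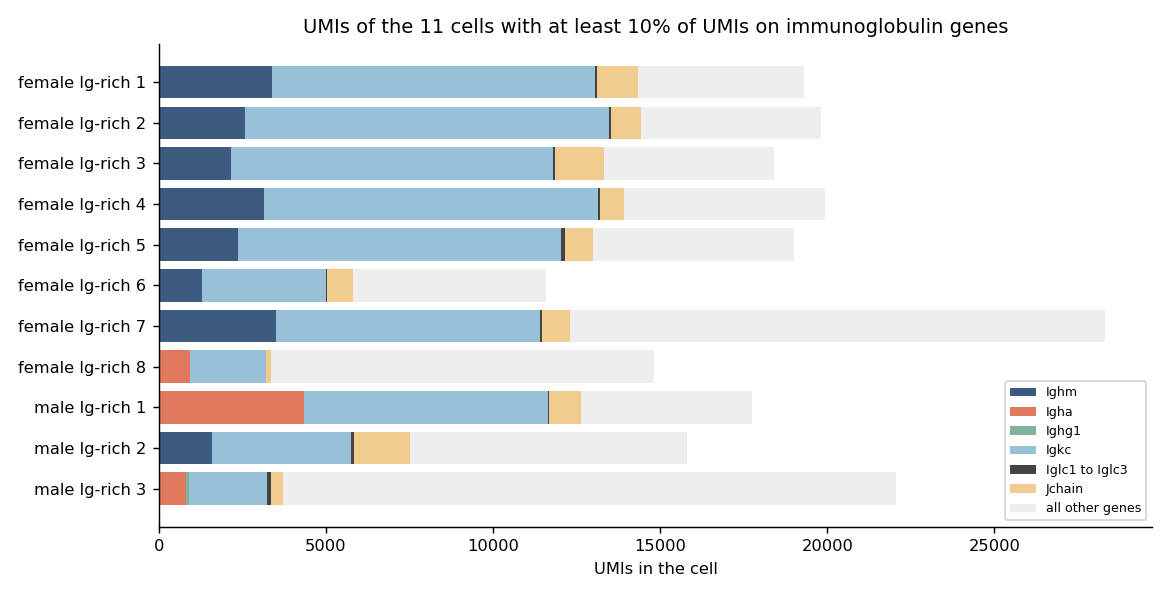
UMIs in each of the 11 Ig-rich cells (horizontal axis), divided by colour into Ighm, Igha, Ighg1, Igkc, the summed lambda genes, Jchain and all other genes. Ighm leads in 7 female and 1 male cell and Igha in 1 female and 2 male cells, Igkc is the longest immunoglobulin segment in every cell, and the lambda segment is barely visible.

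In the remaining B cells, Ighm was present in both groups and somewhat higher in innate-like B cells. It stood at 4166 and 4144 CPM in innate-like B cells of the female and male library and at 3075 and 3590 CPM in follicular B-like cells. The ratio was 1.35 (95% interval 1.29 to 1.43) in the female and 1.15 (1.07 to 1.25) in the male library. Nearly every cell held the transcript: 99.3% and 97.9% of innate-like and 96.8% and 99.5% of follicular B-like cells. With the Ig-rich cells left in the clusters they fell in, the ratio was 5.64 and 2.34, and with a mitochondrial ceiling of 1.2%, which few barcodes meet, the male ratio turned to 0.570. With a ceiling of 5% the male ratio was 1.04 (0.919 to 1.17), an interval that holds 1. Per cell, the median was 21 and 17.5 Ighm UMIs in innate-like and 6 and 5 in follicular B-like cells, at unequal depth. With each cell thinned to 1000 UMIs the mean was 4.27 and 3.75 against 3.06 and 3.28.

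Among the 7 members with at least 10 UMIs in the B cells of each library, Ighd set the groups furthest apart. Jchain, too low for that set, is given below. Its level was 1245 and 1284 CPM in follicular B-like cells and 119 and 192 CPM in innate-like B cells. The ratio of innate-like to follicular B-like cells was 0.0959 (0.0773 to 0.118) in the female and 0.149 (0.110 to 0.199) in the male library. Ighd belongs to the working definition of the follicular group and is given as a description, although the clusters here were named without it. Ighm UMIs per Ighd UMI came to 34.9 and 21.6 in innate-like B cells and 2.47 and 2.80 in follicular B-like cells. Of follicular B-like cells, 80.3% and 79.3% held UMIs of both genes, as did 40.0% and 47.9% of innate-like B cells. With each cell thinned to 1000 UMIs these shares were 59.8% and 64.4% against 11.9% and 18.8%, leaving out 17 female and 15 male follicular B-like cells and no innate-like B cell for shallower depth. With B cells assigned one by one from marker UMIs in place of clusters, the Ighd ratio was 0.281 and 0.326. The 5 highest cells of the innate-like cluster held 28.0% and 51.0% of its Ighd UMIs.

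**Figure D2:**
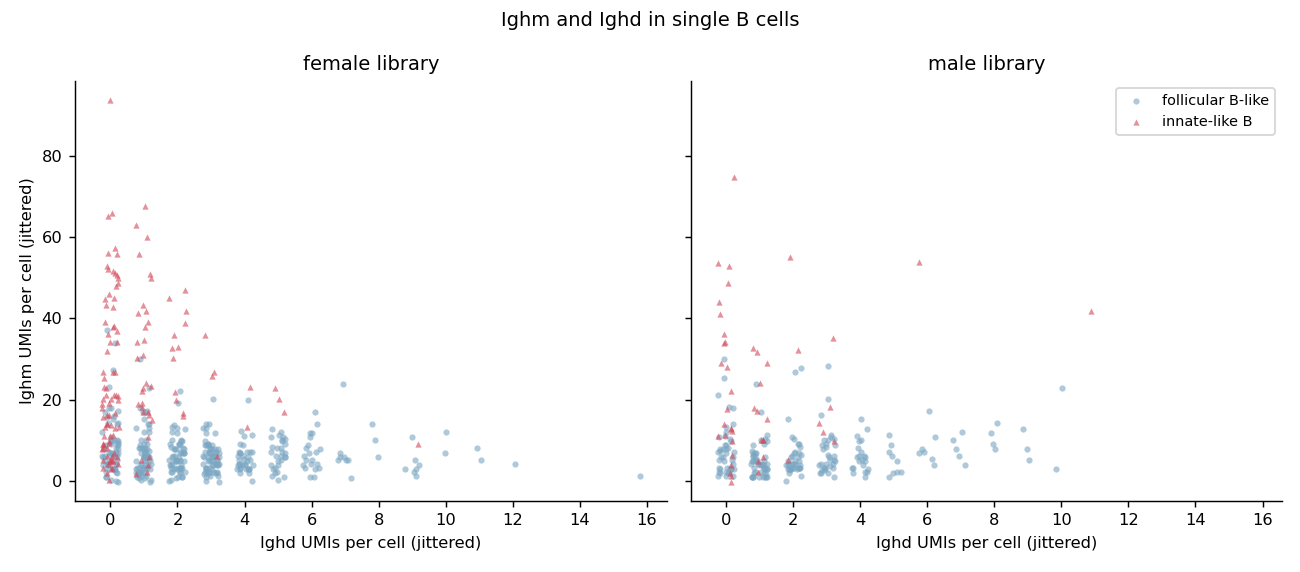
Ighd UMIs (horizontal axis) against Ighm UMIs (vertical axis) in each B cell of the female (left) and male (right) library, with a small jitter. Circles are follicular B-like and triangles innate-like B cells. Triangles reach 94 and 75 Ighm UMIs and circles 37 and 30, while Ighd reaches 9 and 11 UMIs in triangles and 16 and 10 in circles. Counts are raw and not scaled to the unequal depth of the cells.

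Among the light chains Igkc was the highest member in both B cell groups. It stood at 13990 and 14751 CPM in follicular B-like cells and 9611 and 10006 CPM in innate-like B cells, a ratio of 0.687 (0.668 to 0.707) in the female and 0.678 (0.648 to 0.710) in the male library. Iglc1 was close between the groups, with 1384 and 1045 CPM in innate-like and 1413 and 1104 CPM in follicular B-like cells, and both intervals of the ratio held 1 (0.902 to 1.06 and 0.812 to 1.10). Iglc2 went opposite ways in the libraries: the ratio was 1.07 (1.01 to 1.14) in the female and 0.814 (0.731 to 0.904) in the male library. Iglc3 was lower in innate-like B cells of both, with ratios of 0.787 (0.729 to 0.850) and 0.556 (0.485 to 0.637).

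The members were also set against all genes. Of the 5895 genes with at least 10 UMIs in the B cells of each library, 1.46% were at least 2-fold higher in innate-like B cells in both libraries and 2.6% at least 2-fold lower, on the scale of log2(CPM + 10). Of the 7 members tested, 0 were higher, 1 was lower (Ighd, which belongs to the working definition of the groups) and 6 were neither. Ighg1 and Jchain were too low to enter.

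Most B cells held transcripts of both light chain types. Of the B cells with at least 5 light chain UMIs, more came from lambda than from Igkc in 75 of 507 female cells (14.8%, Clopper-Pearson interval 11.8 to 18.2%) and 26 of 263 male cells (9.89%, 6.56 to 14.1%). In innate-like B cells this share was 34 of 133 (25.6%, 18.4 to 33.8%) in the female and 4 of 48 (8.33%, 2.32 to 20.0%) in the male library. In follicular B-like cells it was 41 of 374 (10.96%) and 22 of 215 (10.2%). The female follicular B-like interval was 7.98 to 14.6%. These intervals cover the counting of cells within 1 library, and the difference between the groups was not tested.

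Cells called kappa were rarely free of lambda. Of the 432 female and 237 male kappa cells, 98.6% and 99.6% held a lambda UMI, and lambda made up 24.8% of their light chain UMIs in both libraries. Between 20 and 80% lambda lay 327 female and 161 male cells. In T-like and NK-like cells together the 3 lambda genes gave 207 UMIs over 1554 female and 39 over 744 male cells, against 9518 over 510 and 3341 over 265 B cells. The Ig-rich cells, at 0.695% and 1.58% lambda, lay far below the other B cells on this measure, a share of light chain UMIs. By level the gap was smaller. Iglc1 stood at 675 and 1475 CPM in Ig-rich cells against 1398 and 1081 CPM in the other B cells. Iglc2 stood at 1634 and 1043 against 2701 and 2310 CPM, and Iglc3 at 642 and 1475 against 1625 and 1624 CPM. Since the share in kappa cells is so high, the counts do not separate kappa from lambda cells cleanly, and the shares above are counts of which type led.

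**Figure D3:**
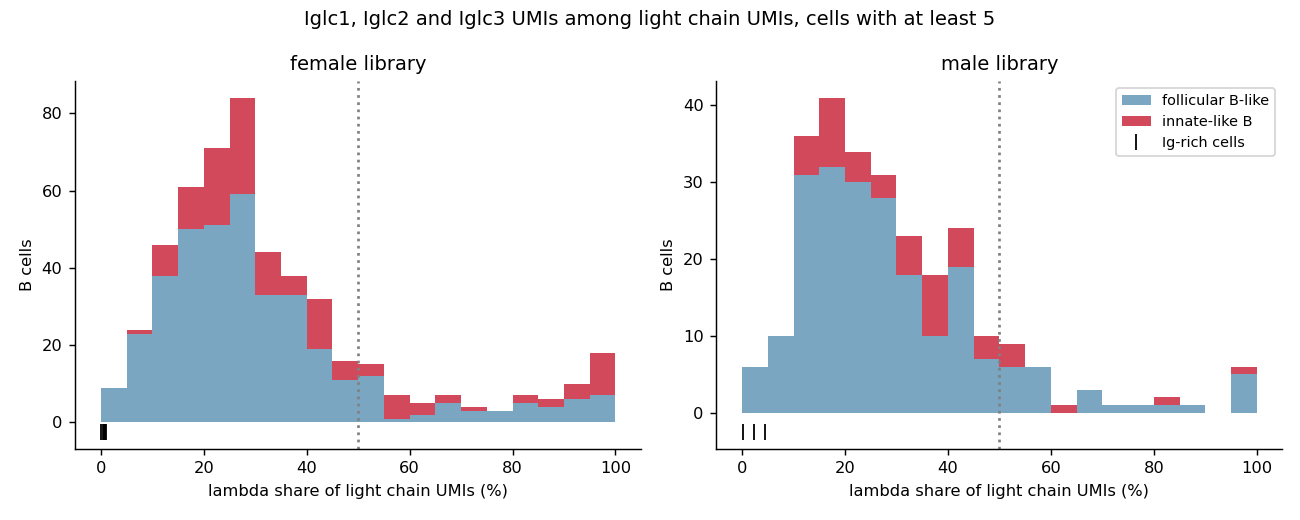
Share of light chain UMIs from Iglc1, Iglc2 and Iglc3 (horizontal axis, %) in B cells with at least 5 light chain UMIs (vertical axis, number of cells, stacked by group), female left and male right, with Ig-rich cells as ticks under the axis. Most cells lie left of the dotted line at 50%, with 327 female and 161 male cells between 20 and 80%, and the Ig-rich ticks stand at 4.43% or below.

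Class-switched transcripts were rare. Summed over Igha, Ighe and the IgG genes, at least 3 UMIs were found in 6 of 518 female B cells (1.16%, 0.426 to 2.50%) and 3 of 268 male B cells (1.12%, 0.231 to 3.24%), Ig-rich cells included. With the Ig-rich cells left out, this threshold was met by 5 of 510 (0.980%, 0.319 to 2.27%) and 1 of 265 (0.377%, 0.00955 to 2.08%). At least 10 UMIs were found in 2 cells of each library. At least 1 UMI was found in 36 and 16 cells, 6.95% and 5.97%. The background for this last count was 0.322% of T-like and NK-like cells in the female library (5 of 1554) and 2.42% in the male library (18 of 744), with a median of 4041 and 4399.5 UMIs a cell against 2187.5 and 1741 in B cells. In myeloid cells (median 3367 and 2932.5 UMIs) it was 0.822% (11 of 1338, 0.411 to 1.47%) and 3.33% (38 of 1142, 2.37 to 4.54%). Without the Ig-rich cells the B cell share was 6.67% (34 of 510, 4.66 to 9.19%) in the female and 4.91% (13 of 265, 2.64 to 8.24%) in the male library. The male B cell interval overlapped both background intervals (1.44 to 3.80% in T-like and NK-like cells), at unequal depth. Per UMI, switched transcripts came to 42.1 and 27.0 CPM in these B cells (70 and 18 UMIs), against 0.859 and 5.61 CPM in T-like and NK-like cells and 2.10 and 9.17 CPM in myeloid cells. None of the T-like and NK-like cells reached 3 UMIs in either library (0 of 1554 and 0 of 744, Clopper-Pearson upper limits 0.237% and 0.495%). The 2 highest cells held 94.9% of the female and 99.6% of the male switched UMIs, and in the male library both were Ig-rich cells.

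Few B cells outside the Ig-rich class held such transcripts without Ighm. The highest was a female innate-like B cell with 19 Ighg2c UMIs, 170 Igkc UMIs and no Ighm or Ighd UMI. Next came a female follicular B-like cell with 7 Ighg2b UMIs and no Ighm or Ighd UMI. The other female cells with 3 or 4 switched UMIs held Ighm UMIs too, 94, 7 and 3. In the male library the highest such cell was innate-like, with 4 Igha and 29 Ighm UMIs, and the male cells with 2 Igha UMIs included an NK-like and a macrophage-like cell. Ighg2b and Ighg2c shared 46 of 1060 windows of 55 bases, so their split is less sure than their sum. Ighe was at 0 in the B cells of both libraries. Ighg1 was at 0 in all B cells outside the 1 Ig-rich cell, with Poisson upper limits of 2.22 CPM in the female and 5.54 CPM in the male B cells.

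Outside the Ig-rich cells Jchain was scarce. Innate-like B cells held 23 and 7 UMIs, in 7 of 135 and 2 of 48 cells, or 27.5 and 26.3 CPM. The female cell with 19 Ighg2c UMIs held 10 of the 23. Follicular B-like cells held 1 UMI in each library. The ratio was 22.7 (3.68 to 934) and 10.5 (1.35 to 475), so its size is poorly fixed. In T-like and NK-like cells Jchain stood at 3.72 and 1.48 CPM.

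**Figure D4:**
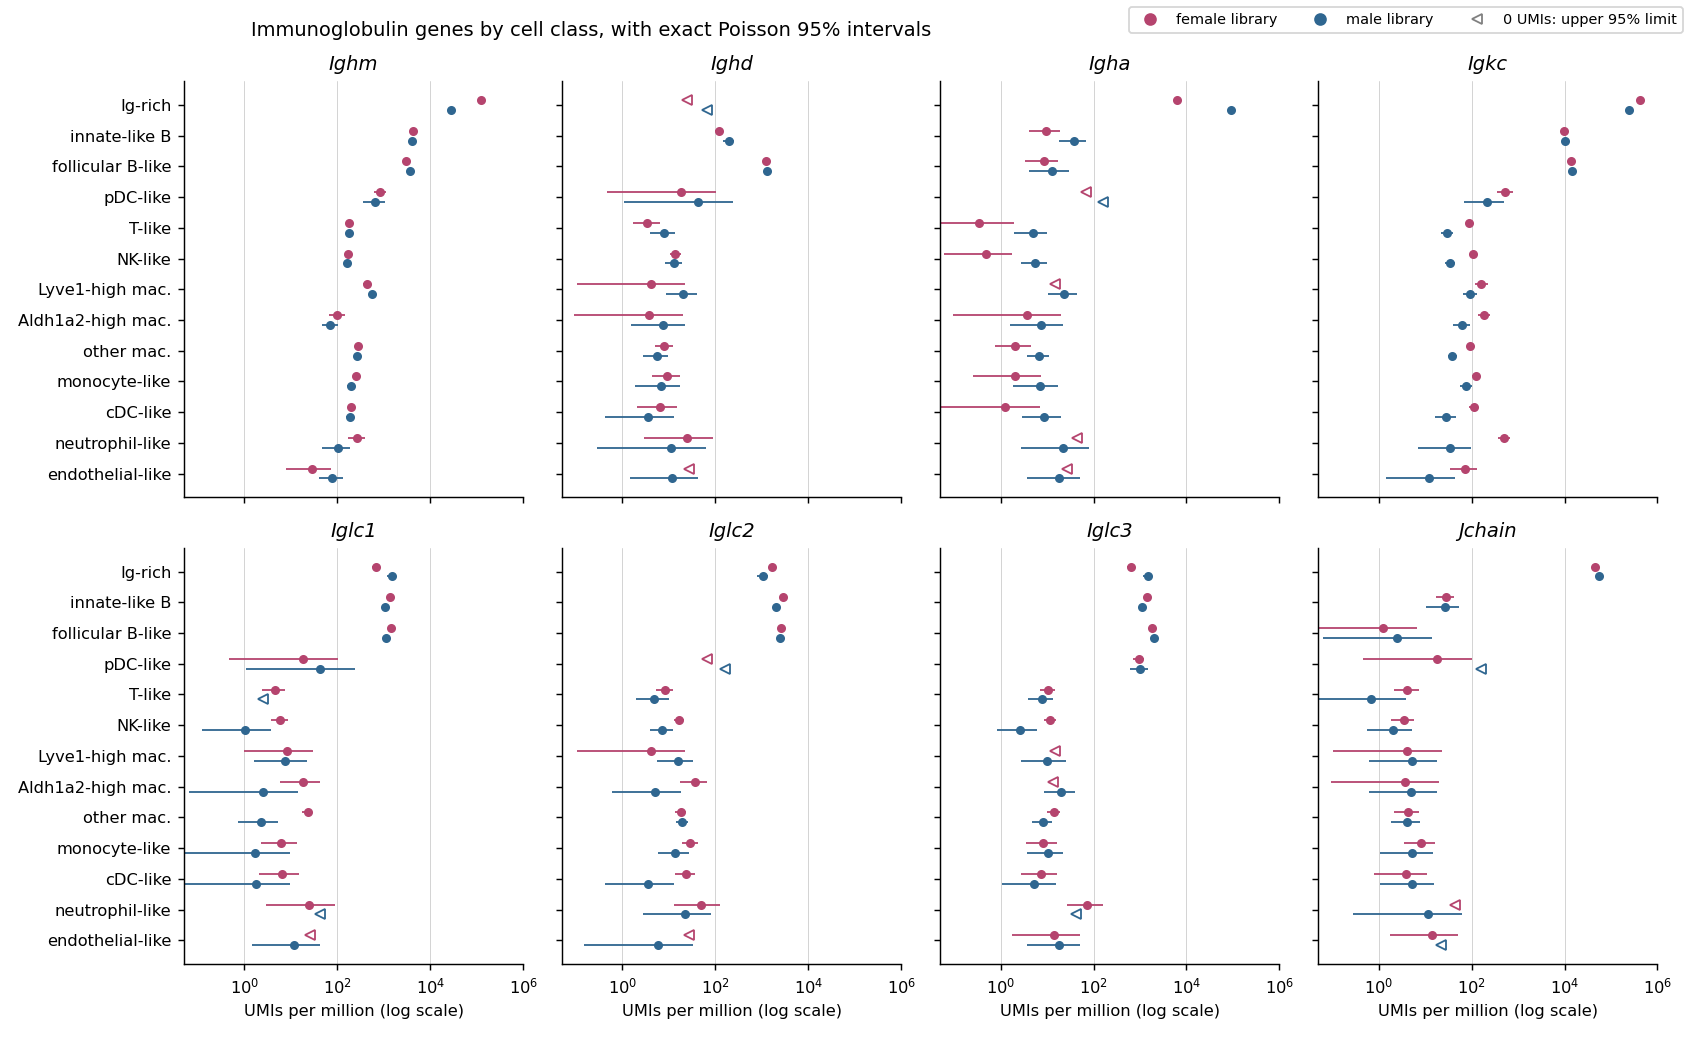
Level of 8 members (CPM, log axis) in 13 cell classes, female in rose and male in blue, with exact Poisson 95% intervals and an open triangle at the upper limit where no UMI was counted. Ig-rich cells lie furthest right for Ighm, Igha, Igkc and Jchain, Ighd is highest in follicular B-like cells, and Iglc3 in pDC-like cells, at 952 and 979 CPM, is the only lambda gene of that class near the B cell values.

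Igkc, Ighm and Igha were also counted outside B cells. In T-like and NK-like cells Igkc stood at 98.4 CPM in the female and 32.8 CPM in the male library (ratio 3.00, 2.45 to 3.70), with a UMI in 25.6% and 11.8% of cells. Without doublet removal the female level was 153 CPM. In myeloid cells it stood at 115 and 49.8 CPM. Over all kept cells Igkc was 2.24 times higher in the female library, 5632 against 2512 CPM. Igha went the other way in T-like and NK-like cells, 0.429 and 5.31 CPM, as it did over all kept cells, 63.5 and 579 CPM. Of the T-like and NK-like cells with an Igkc UMI, 354 of 398 female and 85 of 88 male cells held 1 or 2, while the 21 female and 2 male cells with at least 5 held 29.5% and 15.3% of the Igkc UMIs.

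Ighm did not follow that pattern. Over all kept cells it was 2.79 times higher in the female library, yet T-like and NK-like cells held 173 and 170 CPM (ratio 1.02, 0.922 to 1.13) and myeloid cells 258 and 249 CPM (1.04, 0.955 to 1.12). Among these cells 47.6% and 47.0% of T-like and NK-like cells and 49.6% and 45.8% of myeloid cells had an Ighm UMI. With every cell thinned to 1000 UMIs the share in T-like and NK-like cells was 16.6% and 15.2%, against 92.7% and 93.2% in B cells. The level differed between classes. It was 434 and 559 CPM in Lyve1-high macrophage-like cells, 274 and 264 CPM in other macrophage-like cells and 98.6 and 70.5 CPM in Aldh1a2-high macrophage-like cells, whose intervals (65.0 to 144 and 46.8 to 102) lay below those of the former 2 in both libraries. Endothelial-like cells stood at 28.6 and 77.4 CPM, on 4 and 13 UMIs.

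In T-like, NK-like and most macrophage-like cells Ighm and Igkc stood in a different ratio than in B cells. B cells without the Ig-rich ones held 0.308 and 0.296 Ighm UMIs per Igkc UMI, and Ig-rich cells 0.289 and 0.116. T-like and NK-like cells held 1.76 (1.60 to 1.93) and 5.18 (4.22 to 6.41), and macrophage-like cells 2.62 (2.32 to 2.98) and 5.63 (4.72 to 6.75). Among the macrophage-like classes the Aldh1a2-high cells were lowest, at 0.529 (0.319 to 0.860) and 1.12 (0.630 to 2.00). With the Ig-rich cells left in their clusters, the female value of macrophage-like cells was 0.327, and with the 1.2% ceiling it was 0.872. Without doublet removal the male value was 3.23. Female neutrophil-like cells at 0.524 (0.298 to 0.898) and female endothelial-like cells at 0.40 (0.0916 to 1.39) had intervals that hold the B cell value. Of the 441 female and 393 male macrophage-like cells with an Ighm UMI, 324 and 337 had no Igkc UMI. Relative to Cd79a, a signalling subunit of the B cell receptor, Ighm UMIs came to 1.25 and 1.26 per Cd79a UMI in B cells, 14.2 and 30.3 in T-like and NK-like cells and 14.6 and 32.0 in macrophage-like cells. Where these Ighm UMIs come from was not tested.

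Plasmacytoid dendritic cell-like (pDC-like) cells carried 1 lambda gene and nearly none of the others. This cluster held 21 female and 9 male cells and was led by Siglech, Cox6a2, Klk1 and Ccr9. Iglc3 stood at 952 CPM (711 to 1249, 52 UMIs in 11 cells) in the female and 979 CPM (621 to 1470, 23 UMIs in 4 cells) in the male library. Iglc2 had no UMI, and Iglc1 had 1 UMI in each. Iglc3 thus made up 98.1% (89.9 to 99.95%) and 95.8% (78.9 to 99.9%) of the lambda UMIs, against 28.4% and 32.4% in B cells, 37.7% and 41.0% in T-like and NK-like cells and 23.3% and 34.5% in myeloid cells. In the male library 1 cell held 19 of the 23 UMIs, leaving 4 without it. In the female library the highest cell held 12 of 52.

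Genes of B cells were nearly absent there. Ms4a1, Ebf1 and Pax5 had no UMI in pDC-like cells of either library, and Cd79a had 2 female and 0 male UMIs. Igkc stood at 531 and 213 CPM, 86.2% of the female UMIs in 5 cells, and Ighm at 824 and 639 CPM. Cells gated one by one as holding at least 2 of Siglech, Ccr9, Klk1 and Cox6a2, a gate chosen after the values were seen, numbered 16 and 7 and held Iglc3 at 1202 and 1125 CPM. A pDC-like class was named only in the clustering used here, and in the other clusterings tried no cell got that name. Whether its cells formed a cluster of their own there was not tested.

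B cells were also compared between the libraries, where sex, library and animals cannot be told apart. Of the 4645 genes with at least 50 UMIs in B cells over both libraries, 0.388% differed at least 2-fold between the B cells of the 2 libraries, and none of the 6 members tested did with the Ig-rich cells left out. The female to male ratio over both B cell groups was 0.951 (0.908 to 0.996) for Ighm, 0.917 (0.894 to 0.940) for Igkc, 1.29 (1.19 to 1.41) for Iglc1, 1.17 (1.10 to 1.24) for Iglc2 and 1.0004 (0.932 to 1.07) for Iglc3. These ratios leave out the Ig-rich cells. With all 11 of them counted as B cells the ratio was 2.35 (2.28 to 2.43) for Ighm, past 2-fold, and 1.48 (1.46 to 1.505) for Igkc. Igha then went the other way, at 0.0725 (0.0675 to 0.0777), or 519 against 7167 CPM, and Ighg1 had 0 female and 90 male UMIs. With only those that fell in B cell clusters the ratio was 1.85 for Ighm and 1.17 for Igkc. With the mitochondrial ceiling at 5% the ratio turned to 1.01 for Ighm, and at 1.2% it turned to 1.44 for Igkc, 0.599 for Iglc1 and 0.905 for Iglc2. Ighd was at 0.80 (0.722 to 0.886), with 0.970 (0.872 to 1.08) in follicular B-like and 0.623 (0.440 to 0.890) in innate-like B cells. Igha, too low for the set of genes tested, stood at 9.02 and 22.5 CPM on 15 UMIs in each library, a ratio of 0.401 (0.182 to 0.879), with 0.254 (0.0871 to 0.715) in innate-like B cells. Iglc2 was at 1.38 (1.25 to 1.52) in innate-like and 1.04 (0.967 to 1.12) in follicular B-like cells, and Iglc3 at 1.30 (1.15 to 1.49) and 0.922 (0.845 to 1.01).

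Other genes of the receptor and of secretion were read from a list of 33, of which 22 had enough UMIs. Of these, 0 were 2-fold higher and 4 were 2-fold lower in innate-like B cells in both libraries, and 18 were neither, where 1.46% and 2.6% of all genes tested were higher and lower. These genes took part in the clustering, so their values describe the groups. The median log2 ratio of the list was -0.37 in the female and -0.50 in the male library, beside -0.15 and -0.20 over all genes tested. Lower were Vpreb3, at 4.78 and 22.6 CPM in innate-like against 565 and 557 CPM in follicular B-like cells, and Cr2, the complement receptor CD21, at 7.16 and 3.76 against 151 and 160 CPM. Bach2, a repressor of plasma cell differentiation, stood at 43.0 and 37.6 against 199 and 177 CPM, and Cd72, an inhibitory co-receptor, at 13.1 and 37.6 against 122 and 105 CPM. Mzb1, a chaperone of IgM assembly that also named the group, was at 885 and 718 against 412 and 417 CPM.

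Among genes not held out as immunoglobulin genes, those with the pattern most like a member were found by Pearson correlation of log2(CPM + 10). The correlation ran over 26 points (13 classes in 2 libraries), which share depth and the same cells. For Igkc these were Mzb1 (r = 0.953), Fkbp11 (0.933), Pou2af1 (0.924), Gm30211 (0.891) and Cd79a (0.841). Gm30211 overlaps Igkc on its strand, so their reads may be split. For Ighm they were Fkbp11 (0.929), Mzb1 (0.913), Gm30211 (0.870), Pou2af1 (0.867) and Derl3 (0.847). For Jchain they were Derl3 (0.969), Cdkn3 (0.903), Dlgap5 (0.867), Myl4 (0.853) and Sec11c (0.841). The Ig-rich cells, a class defined by its immunoglobulin UMIs, are the highest points for these members. The 13 classes leave out the unnamed clusters, among them the cluster of cycling cells. The Ig-rich class still includes the female Igha cell that fell in that cycling cluster.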

How the data were processed

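The deposited values are raw UMI counts for each gene in each barcode. Per the labels, the authors prepared 3′ libraries (v3.1 chemistry), aligned and counted 55-base insert reads with Cell Ranger 4.0.0 (mm10 in the submitters' processing notes) and dropped low-quality barcodes on the barcode rank curve with DropletUtils 1.4.3. The members, lists and classes were chosen with earlier results of these data known. Barcodes with at least 200 genes and at most 15% mitochondrial UMIs were kept. The study states a ceiling of 1.2%, which only 333 female and 366 male of the deposited barcodes meet, far fewer than the cells the study states that it kept, so 1.2% was used as an alternative only. Doublets were scored with Scrublet in scanpy 1.11.5, whose own threshold marked 9 of 6648 barcodes. The highest scores were therefore removed at 0.8% per 1000 barcodes, 123 female and 53 male cells. Clustering followed the study's methods (Seurat 5.3.0, sctransform 0.4.2, R 4.3.3, 2000 features, 20 components, resolution 1), with 429 immunoglobulin and 6 sex-linked genes held out, and clusters were named from marker lists, so differences from the study may come from rebuilt names. UMIs were summed per library and class as CPM with exact Poisson intervals, shares of cells got Clopper-Pearson intervals and ratios exact conditional binomial ones (SciPy 1.17.1). The interval functions were tested on simulated data. The named genes are the 9 members, the remaining IgG genes and Ighe by count, the highest cells for switched UMIs, the receptor list genes past 2-fold in both libraries and the 5 genes most like Igkc, Ighm and Jchain. Mzb1 of the receptor list, Sdc1, Xbp1, Tnfrsf17 and the pDC genes were named after their values were seen. Gene positions and sequences come from GENCODE vM21 on GRCm38, in which all member IDs matched the files. Alternatives tried were other mitochondrial ceilings, no doublet removal, other clusterings, per-cell gates, other UMI thresholds, leaving out the 5 highest cells and, chosen after seeing the data, leaving Ig-rich cells in their clusters and gating pDC-like cells one by one. Some items are not reported here.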

Additional observations from a re-analysis of the deposited data

How the results depend on the processing

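Of 164 recomputed values, 105 stayed within the main interval, 50 left it and 9 crossed 1 where the main interval did not hold 1. The female to male Iglc3 ratio, whose interval holds 1, fell on either side of it. With a 1.2% mitochondrial ceiling, which 333 female and 366 male barcodes meet, most values moved. The Ighm ratio of innate-like to follicular B-like cells was then 2.10 in the female (on 3 innate-like UMIs) and 0.570 in the male library, the Ighd ratio 0 and 0.0583, the switched share 16.7% and 5.88% (1 cell each), the lambda share 25% and 18.8%, Ighm per Igkc in macrophage-like cells 0.872 and 2.26, and Igkc in T-like and NK-like cells 45.5 and 49.4 CPM. The female to male ratios there were 0.324 for Ighm, 0.659 for Ighd, 1.44 for Igkc, 0.599 for Iglc1, 0.905 for Iglc2 and 3.37 for Iglc3. With a 5% ceiling the Ighm ratio was 1.47 and 1.04, the female Ighd ratio 0.0719, and the female to male ratio 1.01 for Ighm (main 0.951), 0.950 for Igkc and 1.52 for Iglc1. Without doublet removal Ighm per Igkc in macrophage-like cells was 2.12 and 3.23, Igkc in T-like and NK-like cells 153 and 47.9 CPM and the female to male Igkc ratio 0.892. Leiden clustering without integration gave Ighd ratios of 0.128 and 0.256, and per-cell gates gave 0.281 and 0.326 with a male Ighm ratio of 1.39. Without the 5 highest cells the Ighd ratio was 0.0750 and 0.0870, Ighm per Igkc in macrophage-like cells 3.18 and 7.68, Igkc in T-like and NK-like cells 86.6 and 25.5 CPM and the female to male Iglc1 ratio 1.56. With Ig-rich cells left in their clusters, an alternative chosen after seeing the data, the Ighm ratio was 5.64 and 2.34, female Ighm per Igkc in macrophage-like cells 0.327, and the female to male ratio 1.85 for Ighm and 1.17 for Igkc. At least 1 switched UMI gave 6.95% and 5.97%, and at least 10 gave 0.386% in the female library. Thinning to 500 UMIs gave Ighm in 77.5% and 74.3% of B cells and 8.94% and 9.27% of T-like and NK-like cells, Ighd in 36.5% and 39.3% of B cells and 0.257% and 0.538% of T-like and NK-like cells, and Igkc in 5.21% and 1.48% of T-like and NK-like cells. Beyond the construction of each alternative the cause was not tested. No paired analysis was possible because each sex has 1 library. Switched transcripts below 3 UMIs a cell, Jchain outside Ig-rich cells and the 9 male pDC-like cells rest on too few UMIs to fix a level.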

Other observations

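Variable genes were also counted in the Ig-rich cells. In 3 female cells, all led by Ighm, the most counted heavy and light variable genes were the same pair. Ighv1-55 had 4, 14 and 20 UMIs and Igkv1-99 had 80, 64 and 64 UMIs. Among the other B cells Ighv1-55 had a UMI in 1 of 510 female cells (0.196%, 0.00496 to 1.09%) and 1 of 265 male cells, and Igkv1-99 in 1 of 510 female and 0 of 265 male cells. No other pair of variable genes led in more than 1 Ig-rich cell. The pairing was noticed in these data and was not tested. These variable genes were read from 3′ counts, which reach the variable part of few transcripts. The median was 28.5 Igkc and 7 Ighm UMIs in the other female B cells, against 9626 and 2469 in the female Ig-rich cells. A B cell using the pair could thus show no UMI of it, so these shares do not measure how often it is used.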
